A study of Mus musculus with 282 samples.

Results

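Gene expression was compared directly between livers in which the kinase complex mTORC1 is released from a brake and livers in which it cannot form. In the first group, called TSKO, mice lacked Tsc1 in the liver. In the second, called RPKO, mice lacked Raptor (gene symbol Rptor) in the liver. All libraries of both knockouts were used, 18 of TSKO and 18 of RPKO, which are 36 of the 282 libraries in the series. Libraries of mice with the Albumin-Cre transgene alone, also 18, served only to tell whether a gene moved in opposite directions or in the same direction in both knockouts. All mice were male C57BL/6J, individually caged and fed only at night, and their livers were taken at zeitgeber time (ZT, hours after lights on) 2, 6, 10, 14, 18 and 22, with 3 libraries per genotype and time. The libraries are described as biological replicates with nothing further on separate animals, so p-values measure the spread between these libraries. The study describes both knockouts as liver specific with Albumin-Cre mice as controls. Albumin-Cre acts in hepatocytes, and liver cells in which it is not active would keep both genes. Ages, the exons removed and littermate status were not found in the sources. Reads came from the 3′ ends of polyadenylated transcripts in whole liver lateral lobe. In such bulk samples, fewer cells of a type and less RNA per cell cannot be told apart.

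mTORC1 is a protein kinase complex at the lysosome that couples amino acids and insulin to growth. Raptor is the subunit that brings it its substrates. The TSC complex, of which Tsc1 is the scaffold, inactivates the small GTPase Rheb and so holds mTORC1 in check. In liver, mTORC1 is known to promote protein, nucleotide and lipid synthesis after feeding and to restrain autophagy, and the transcription factors TFEB and TFE3, which drive lysosomal genes, are among its substrates.

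Levels are given as RPM (reads of a gene per 1000000 reads of its library) after rescaling the libraries, and differences as TSKO minus RPKO on the log2(RPM + 0.5) scale, averaged over the 6 times, with the standard error (SE). A difference was called at a Benjamini-Hochberg adjusted p under 0.05 in limma over all 12421 genes tested. Each TSKO library held 6.27 M to 10.6 M recovered reads (M, mega), each RPKO library 4.23 M to 8.01 M and each Albumin-Cre library 6.71 M to 9.67 M.

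The RPKO libraries stood apart in how reads fell on genes that resemble each other, and this bears on every comparison with them. Between 4.73% and 7.95% of genes were at 0 in an RPKO library, against 1.52% to 4.00% in a TSKO library and 1.14% to 4.10% in an Albumin-Cre library. No gene was at 0 in all 18 libraries of TSKO or of Albumin-Cre, and 101 genes were at 0 in all 18 of RPKO. The 623 annotated pseudogenes tested had a median log2 difference from Albumin-Cre of −0.13 in TSKO and −1.37 in RPKO, and 1.28% of them in TSKO and 58.6% in RPKO were more than 2-fold below Albumin-Cre. The labels do not say how the authors' counting treated each arm, so processing and genotype cannot be told apart for these genes. The results below therefore rest on 9359 genes told apart, meaning genes annotated once, not pseudogenes, with under 10% of their last 500 transcribed bases found at the end of any other gene. For these, the standard deviation over genes of the difference from Albumin-Cre was 0.38 in TSKO and 0.31 in RPKO. Any call that involves RPKO, against Albumin-Cre or against TSKO, could still hold effects of that processing, whose part was not tested. Of the genes told apart, 3249 overlap an exon of another gene, on either strand.

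**Figure D1:**
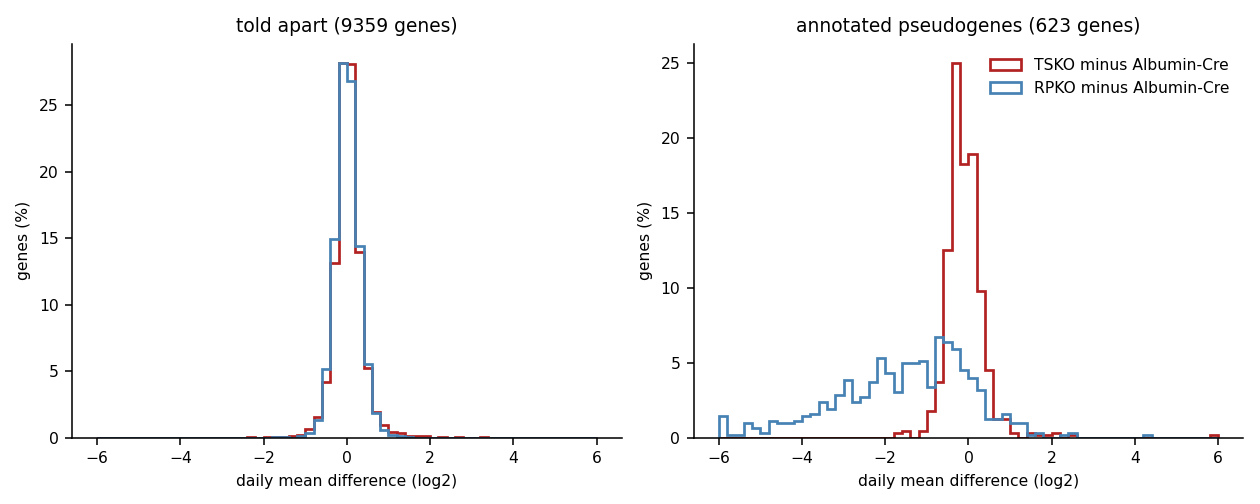
Distribution over genes of the daily mean log2 difference from Albumin-Cre in TSKO and RPKO, in percent of genes, for the 9359 genes told apart (left) and the 623 annotated pseudogenes (right); values beyond the axis are in the last bin. The curves overlie each other on the left, while on the right the RPKO curve reaches far below 0 and the TSKO curve does not.

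Among the genes told apart, 5147 (55.0%) differed between the knockouts, of which 2729 were higher in TSKO than in RPKO, 29.2% of the genes told apart, and 2418 were lower, 25.8%. Over all genes tested 7160 differed (57.6%), 3853 higher (31.0%) and 3307 lower (26.6%). Most differences were small, since a minimum of 1.5-fold left 772 higher and 670 lower genes told apart. Of the 5147 called genes told apart, 3987 had the same sign at all 6 times. The call used the mean of these same times, which favours 1 sign, so this count is a description. Every TSKO library lay above every RPKO library for 124 genes told apart (1.32%) and below for 65 (0.695%). With the deposited scaling in place of the rescaling, the median difference over all tested genes moved to 0.25, and 6518 genes were called higher and 1600 lower. Differences under about that size therefore depend on the rescaling.

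The targeted genes were examined first. Tsc1 (chr2:28641228-28691167, GRCm38, plus strand) had 3.86, 7.74 and 11.6 RPM as the lowest, median and highest TSKO library, against 7.54, 11.4 and 18.6 RPM in RPKO and 9.60, 15.4 and 23.0 RPM in Albumin-Cre. TSKO libraries were lowest as a group, with overlap, and the log2 difference from RPKO was −0.63 (SE 0.08, limma adjusted p = 2.1e-08). Tsc1 was also lower in RPKO than in Albumin-Cre, by −0.36 on the log2 scale (limma adjusted p = 0.00056). Rptor (chr11:119602905-119899576, plus strand) had 6.13, 8.62 and 11.4 RPM in TSKO, against 2.79, 4.66 and 9.62 RPM in RPKO and 6.97, 8.76 and 11.8 RPM in Albumin-Cre. RPKO libraries were the lowest group, again with overlap, at a difference of 0.74 (SE 0.10, limma adjusted p = 5.2e-08). Because 3′ reads see a transcript wherever the deletion lies upstream, these levels do not measure how complete either deletion was.

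Genes that encode mTORC1 and its regulators were more often higher in TSKO. Of 37 tested, 32 could be told apart, and 18 of these were higher in TSKO than in RPKO, 7 were lower and 7 did not pass, with a median difference of 0.29 beside 0.02 over all genes told apart. The list includes both targeted genes, so Tsc1 and Rptor are among its calls. The higher members included several that act against mTORC1 and several that act for it. Over all genes told apart, 29.2% were higher and 25.8% lower, and each list count below stands beside these shares.

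Ddit4 encodes REDD1, an inhibitor of mTORC1 that works through the TSC complex. Its level was 29.8, 80.0 and 166 RPM as the lowest, median and highest TSKO library, against 2.48, 16 and 32.8 RPM in RPKO and 4.85, 16.1 and 29.7 RPM in Albumin-Cre. The RPKO and Albumin-Cre ranges nearly coincided, and the lowest TSKO libraries reached the top of the RPKO range. The difference from RPKO was 2.31 (SE 0.12, limma adjusted p = 7.9e-21) and ranged from 1.55 to 3.25 over the 6 times.

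Rragd (chr4:32983037-33022180, plus strand) encodes a Rag GTPase that recruits mTORC1 to the lysosome and is a known TFEB target. It had 5.52, 11.9 and 21.6 RPM in TSKO, against 0, 0.852 and 2.79 RPM in RPKO and 0.133, 0.711 and 1.37 RPM in Albumin-Cre. No TSKO library overlapped either other group, and the difference from RPKO was 3.00 (SE 0.16, limma adjusted p = 2.8e-20). Its partner gene Rragc was higher in TSKO by 0.74, and Flcn, which encodes the folliculin activator of these GTPases, by 1.42.

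The translation repressors Eif4ebp1 and Eif4ebp2, whose proteins mTORC1 phosphorylates, were also higher. Eif4ebp2 had 438 to 845 RPM in TSKO, against 157 to 317 RPM in RPKO and 200 to 488 RPM in Albumin-Cre. TSKO and RPKO did not overlap, while Albumin-Cre overlapped both, with TSKO higher than Albumin-Cre by 0.91 and RPKO lower by −0.53 (limma adjusted p = 5.6e-12 and 9.9e-07). Eif4ebp1 differed by 0.93 between the knockouts and was higher than Albumin-Cre in TSKO alone, by 0.89, with a value of −0.03 in RPKO. The sestrin gene Sesn3, which encodes an inhibitor of amino acid signalling to mTORC1, differed by 1.07. The 7 lower members included Rictor (−0.43), the defining subunit of the sister complex mTORC2, and Tbc1d7 (−0.46), a subunit gene of the TSC complex.

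**Figure D2:**
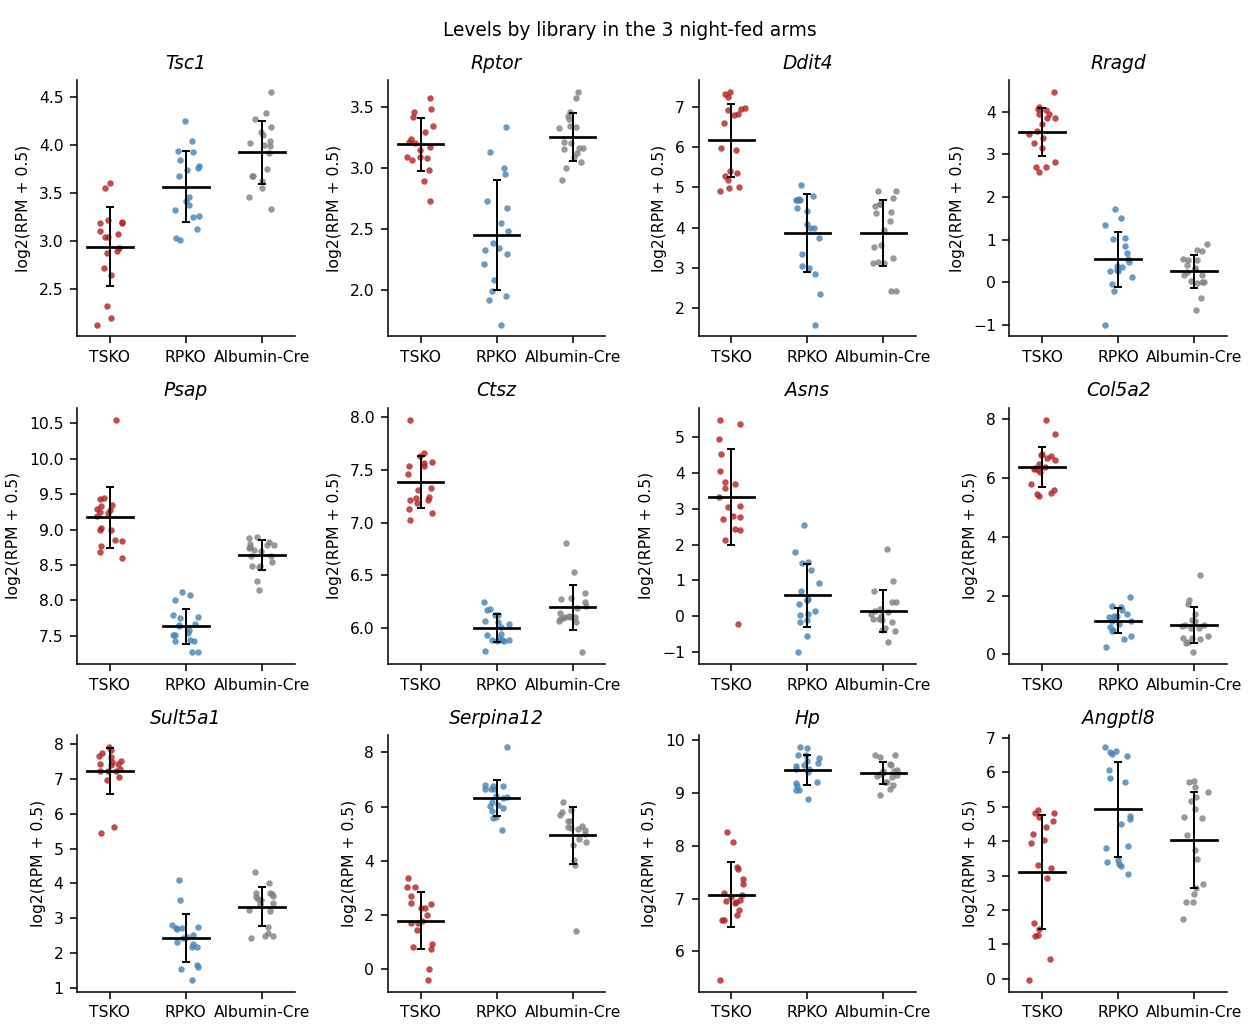
Level in each library on a log2(RPM + 0.5) axis, for 12 genes in TSKO, RPKO and Albumin-Cre, with 18 libraries per group; lines and bars are the mean and SD over libraries of all times, and each panel has its own axis. Rragd, Psap, Ctsz, Col5a2, Sult5a1, Serpina12 and Hp show no overlap between TSKO and RPKO.

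Lysosomal genes were also more often higher in TSKO. Of the 44 tested lysosomal genes and TFEB targets, 43 could be told apart. Of these 43, 24 were higher in TSKO than in RPKO, 7 were lower and 12 did not pass, with a median of 0.35. The shares over all genes told apart were 29.2% higher and 25.8% lower. The genes of the factors themselves were among the 7 lower ones, Tfeb by −0.54 and Tfe3 by −0.27. Against Albumin-Cre, 8 members moved in opposite directions in the knockouts and 8 in the same direction, while 13 were called for TSKO only and 4 for RPKO only.

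Psap encodes prosaposin, the precursor of sphingolipid activator proteins. It had 388, 592 and 1510 RPM as the lowest, median and highest TSKO library, against 153, 195 and 278 RPM in RPKO and 282, 418 and 477 RPM in Albumin-Cre. The knockouts did not overlap, and they flanked the control, with TSKO higher by 0.53 and RPKO lower by −1.0 (limma adjusted p = 3.0e-05 and 1.4e-11). The direct difference was 1.54 (SE 0.10, limma adjusted p = 1.4e-17). Ctsz, a lysosomal carboxypeptidase gene, had 130 to 251 RPM in TSKO, against 54.8 to 75.5 RPM in RPKO and 54.1 to 112 RPM in Albumin-Cre, a difference of 1.38 (SE 0.06, limma adjusted p = 4.7e-23). Most of the Ctsz difference lay on the TSKO side, where it was 1.19 above Albumin-Cre, against −0.19 in RPKO. The beta-glucuronidase gene Gusb (1.10), the proton pump subunit genes Atp6v1a (0.99) and Atp6v1d (0.76) and the cathepsin gene Ctsl (1.06) were higher as well.

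The E-box TCACGTGA, the core of the element that TFEB and its relatives bind, was searched for in RefSeq promoters (GRCm38.p6, 250 bases before to 50 after the start of transcription), and being its own reverse complement it reads alike on both strands. It was present in 320 of 32851 promoters (0.974%), and in 6 of the 34 lysosomal list genes that had a promoter there (17.6%). Of these 6 genes, Atp6v1a, Ctsa and Mcoln1 were higher in TSKO, Ctsd was lower and Atp6v0d1 and Gla did not pass. The share over all promoters counts promoters and the share of the list counts genes, so their units differ. The list was drawn up with TFEB targets in it, so its share is not independent of the motif. The same letters stood in the promoters of 54 of 2176 genes told apart that were higher in TSKO (2.48%), 27 of 1850 that were lower (1.46%) and 73 of 3255 that did not pass (2.24%). The promoters of the 4 called genes are shown because they hold this motif, in capitals, while one of them moved the other way. They lie at chr16:44139210-44139509 (minus strand), chr2:164833523-164833822 (plus), chr8:3500269-3500568 (plus) and chr7:142387778-142388077 (minus).
Atp6v1a: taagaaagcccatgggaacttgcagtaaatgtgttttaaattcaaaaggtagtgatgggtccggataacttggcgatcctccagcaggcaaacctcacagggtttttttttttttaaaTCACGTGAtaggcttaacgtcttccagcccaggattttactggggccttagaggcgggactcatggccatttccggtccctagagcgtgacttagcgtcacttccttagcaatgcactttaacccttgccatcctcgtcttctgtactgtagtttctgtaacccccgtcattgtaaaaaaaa
Ctsa: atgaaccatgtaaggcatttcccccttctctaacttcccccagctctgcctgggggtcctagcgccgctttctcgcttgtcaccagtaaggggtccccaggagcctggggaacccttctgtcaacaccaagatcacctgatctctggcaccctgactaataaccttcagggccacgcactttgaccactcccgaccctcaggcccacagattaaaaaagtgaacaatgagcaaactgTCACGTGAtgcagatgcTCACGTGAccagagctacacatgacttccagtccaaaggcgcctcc
Mcoln1: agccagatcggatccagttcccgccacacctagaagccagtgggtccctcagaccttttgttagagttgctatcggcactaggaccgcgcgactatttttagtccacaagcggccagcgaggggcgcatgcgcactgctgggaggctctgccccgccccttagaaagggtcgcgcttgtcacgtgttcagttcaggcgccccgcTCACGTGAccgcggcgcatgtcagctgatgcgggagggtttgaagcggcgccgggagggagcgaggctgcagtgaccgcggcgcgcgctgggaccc
Ctsd: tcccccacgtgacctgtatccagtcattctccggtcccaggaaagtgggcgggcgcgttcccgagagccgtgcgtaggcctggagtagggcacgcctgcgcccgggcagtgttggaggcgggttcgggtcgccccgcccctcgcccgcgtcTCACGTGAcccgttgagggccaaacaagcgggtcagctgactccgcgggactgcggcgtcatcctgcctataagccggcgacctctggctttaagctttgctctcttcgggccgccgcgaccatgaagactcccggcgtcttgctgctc
Ctsa, which encodes protective protein cathepsin A and holds the motif at 2 places, had 48.5 to 78.6 RPM in TSKO, against 34.5 to 49.6 RPM in RPKO, a difference of 0.50 (SE 0.05, limma adjusted p = 1.7e-11). Mcoln1, the gene of a lysosomal calcium channel, had 1.89 to 7.42 RPM in TSKO and 1.59 to 4.95 RPM in RPKO, a difference of 0.47 (SE 0.10, limma adjusted p = 0.00016). Ctsd, the gene of the aspartic protease cathepsin D, had 156 to 236 RPM in TSKO and 182 to 319 RPM in RPKO, a difference of −0.22 (SE 0.08, limma adjusted p = 0.011). The groups overlapped for all of these 3 genes, and Ctsd overlaps another gene on its own strand and Ctsa another on the opposite strand.

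Autophagy genes were mostly higher too, with 17 of 27 told apart higher in TSKO, 3 lower and 7 not called, and a median of 0.29. Beside this, 29.2% of all genes told apart were higher and 25.8% lower. Gabarapl1, whose product coats the growing autophagosome, had 222, 419 and 765 RPM in TSKO, against 85.6, 152 and 263 RPM in RPKO and 86.6, 147 and 359 RPM in Albumin-Cre. Its difference was 1.46 (SE 0.08, limma adjusted p = 1.5e-20), the groups overlapped slightly, and RPKO differed from Albumin-Cre by −0.11, which did not pass. Wipi1, which binds the autophagosome membrane, was higher than Albumin-Cre in TSKO by 0.52 and lower in RPKO by −0.53. Ulk1, the kinase that starts autophagy and a target of mTORC1, differed by 0.78. The lower members were Atg10 (−0.25), Atg101 (−0.27) and Optn (−0.36).

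Stress genes driven by ATF4, a transcription factor whose translation mTORC1 can promote, were called in 1 direction. Of 14 told apart, 7 were higher in TSKO than in RPKO, none was lower and 7 did not pass, with a median of 0.28. Beside this, 29.2% of all genes told apart were higher and 25.8% lower. Asns, asparagine synthetase, had 0.368, 8.70 and 44.1 RPM in TSKO, against 0, 0.871 and 5.36 RPM in RPKO and 0.113, 0.525 and 3.18 RPM in Albumin-Cre, so TSKO covered a wide span that reached into both other groups. The difference was 2.74 (SE 0.31, limma adjusted p = 3.4e-10). Nupr1, a stress-induced chromatin protein gene, differed by 1.89 and Trib3, a pseudokinase gene, by 1.08. Atf4 itself differed by 0.31 (SE 0.08, limma adjusted p = 0.00066), with 72.8 to 175 RPM in TSKO and 67.0 to 158 RPM in RPKO.

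The ATF4 site TGATGCAA, searched on both strands, was present in 294 of the 32851 promoters (0.895%) and in those of 7 of 23 genes of this list (30.4%). These shares too count promoters and genes, and the list was drawn up with ATF4 targets in it. Among genes told apart the site stood in 16 of 2176 that were higher in TSKO (0.735%), 16 of 1850 that were lower (0.865%) and 24 of 3255 that did not pass (0.737%). Of the 7 list genes with the site, Nupr1 and Vldlr (0.53) were higher in TSKO than in RPKO. Atf3 (0.04), Chac1 (0.25) and Herpud1 (0.06) did not pass, and Fgf21 and Slc7a11 were not tested. The promoter of Nupr1 (chr7:126625421-126625720, minus strand) is shown because Nupr1 had the largest difference among the tested genes of this list that hold the site. The capitals are the site read on the other strand.
Nupr1: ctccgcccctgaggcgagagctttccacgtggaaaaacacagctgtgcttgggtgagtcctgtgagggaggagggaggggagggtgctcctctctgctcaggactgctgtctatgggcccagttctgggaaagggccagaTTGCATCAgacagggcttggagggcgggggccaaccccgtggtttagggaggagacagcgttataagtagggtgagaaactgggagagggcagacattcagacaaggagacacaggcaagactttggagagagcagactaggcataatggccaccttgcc
Nupr1 had 0.456, 2.56 and 14.4 RPM in TSKO, against 0, 0.208 and 1.29 RPM in RPKO and 0, 0.458 and 1.36 RPM in Albumin-Cre. The TSKO range overlapped those of RPKO and of Albumin-Cre only at its low end.

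Biosynthetic programmes linked to mTORC1 were less uniform. The shares over all genes told apart, 29.2% higher and 25.8% lower, stand beside the counts of these lists. Ribosomal protein genes could hardly be compared, because only 1 of 62 tested could be told apart. Among 29 ribosome biogenesis genes told apart, 6 were higher in TSKO and 9 lower, with a median of −0.07, and 12 were higher and 4 lower with the deposited scaling. Aminoacyl-tRNA synthetases split into 8 higher and 7 lower of 17, with Sars (0.76) and Dars (−0.67) at the ends. For pentose phosphate and nucleotide synthesis, 8 of 17 were higher and 4 lower. Cad, which starts pyrimidine synthesis, had 3.03 to 7.43 RPM in TSKO, against 1.18 to 4.83 RPM in RPKO and 2.38 to 6.78 RPM in Albumin-Cre. Its difference of 0.87 (SE 0.12, limma adjusted p = 2.6e-08) lay on the RPKO side, which was −0.70 from Albumin-Cre.

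Cholesterol synthesis genes and targets of SREBP2 gave 7 higher and 1 lower of 17, with a median of 0.11. Fatty acid synthesis genes and SREBP1 targets had 7 higher, 6 lower and 5 uncalled members of 18, with a median of 0.02. Of the cell cycle genes, which hepatocytes normally keep low, 6 of 13 were higher and none lower. Beside these lists, 29.2% of all genes told apart were higher and 25.8% lower. Cdk1, the mitotic kinase, had 2.21 to 8.73 RPM in TSKO, against 0.777 to 4.24 RPM in RPKO and 0.138 to 4.05 RPM in Albumin-Cre, a difference of 1.10 (SE 0.18, limma adjusted p = 1.3e-06).

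Fatty acid oxidation and ketogenesis had 3 higher and 9 lower of 21 and a median of −0.19, but 8 higher and 6 lower with the deposited scaling. With the rescaling used here, 29.2% of all genes told apart were higher and 25.8% lower. Acot2, a mitochondrial acyl-CoA thioesterase gene, had 4.74, 8.47 and 23.2 RPM in TSKO, against 17.2, 27.7 and 50.6 RPM in RPKO and 19.6, 30.8 and 56.5 RPM in Albumin-Cre. The knockouts overlapped little, the difference was −1.51 (SE 0.15, limma adjusted p = 1.0e-11), and against Albumin-Cre it was −1.59 in TSKO and −0.08 in RPKO. Hadha, the trifunctional protein subunit gene, had 174 to 252 RPM in TSKO, below the 262 to 317 RPM in RPKO without overlap, and Albumin-Cre overlapped both at 210 to 341 RPM.

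**Figure D3:**
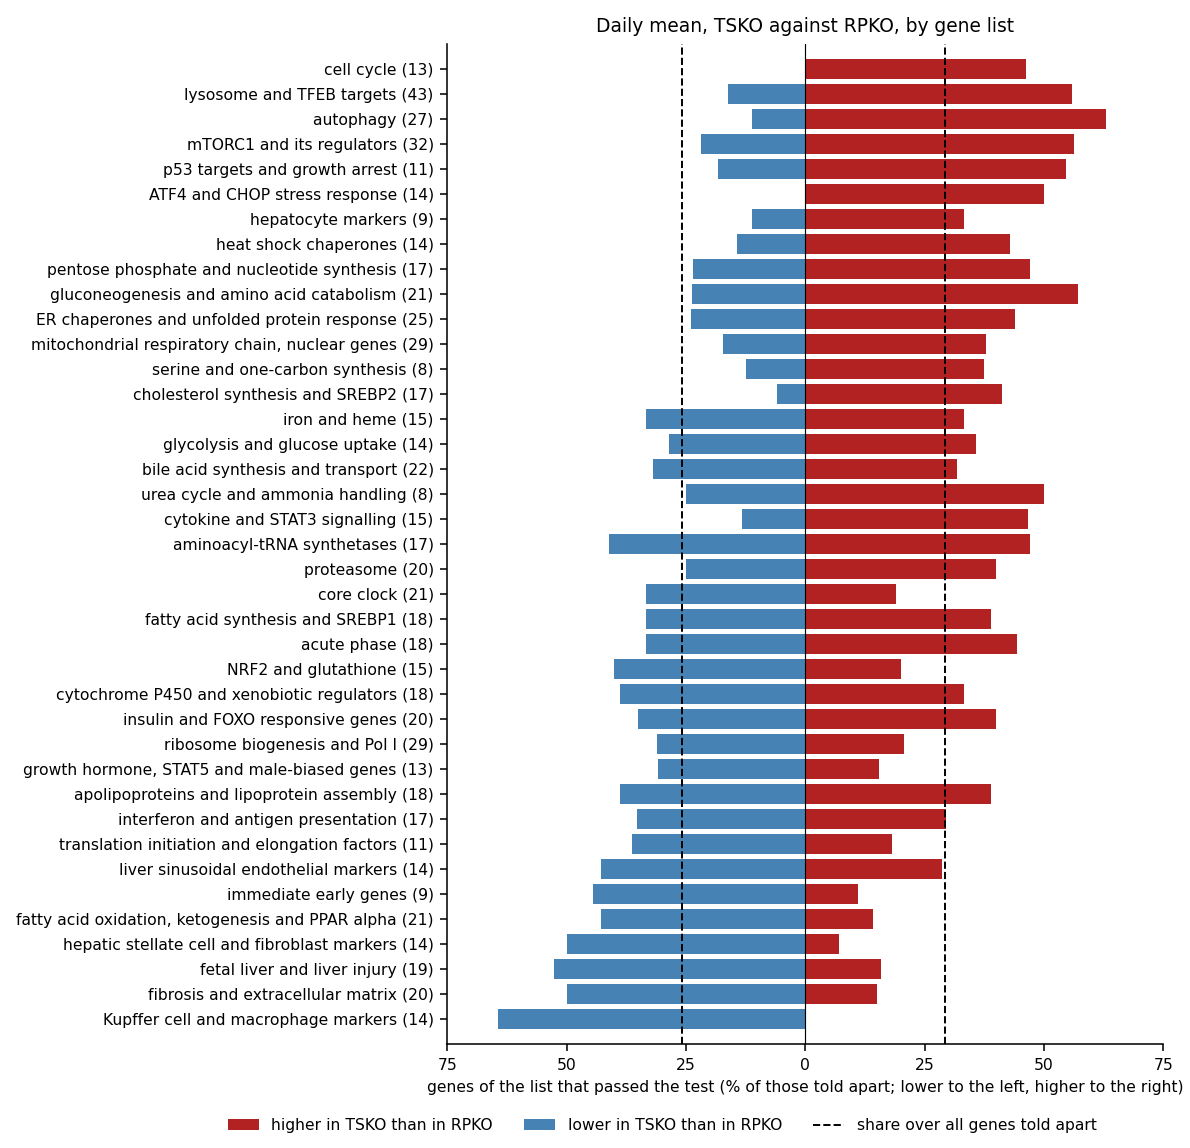
Percent of the genes told apart in each list that were called higher in TSKO than in RPKO (to the right) or lower (to the left), for lists with at least 8 such genes, whose number is in parentheses; lists run from the highest median difference at the top to the lowest. The dashed lines mark the shares over all genes told apart, 29.2% higher and 25.8% lower. Autophagy, lysosome and mTORC1 lists extend past the line on the right, and macrophage and liver injury lists past the line on the left.

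Glucose, glycogen and insulin-linked genes differed member by member. Among gluconeogenesis and amino acid catabolism genes, 12 of 21 were higher in TSKO and 5 lower, beside 29.2% and 25.8% over all genes told apart. G6pc, the last step of glucose release, had 147 to 688 RPM in TSKO and 73.7 to 367 RPM in RPKO, a difference of 0.87 (SE 0.12, limma adjusted p = 5.5e-08). Oat, ornithine aminotransferase, went the other way with 101, 193 and 340 RPM in TSKO, against 334, 643 and 880 RPM in RPKO and 251, 398 and 668 RPM in Albumin-Cre. TSKO lay lowest and RPKO highest, with a small overlap of the knockouts, and the difference was −1.61 (SE 0.12, limma adjusted p = 8.1e-16). Akt1, the gene of a kinase of insulin signalling, did not overlap between the knockouts at 61.7 to 95.6 RPM in TSKO and 26.9 to 54 RPM in RPKO, against 20.1 to 67.7 RPM in Albumin-Cre.

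Angptl8, a feeding-induced regulator of lipoprotein lipase, had 0.478, 12.2 and 29.4 RPM in TSKO, against 7.83, 25.4 and 106 RPM in RPKO and 2.81, 21.3 and 52.7 RPM in Albumin-Cre. The ranges were wide and overlapped, and at each time the difference was negative, between −2.67 and −1.26. The daily mean was lower than in Albumin-Cre in TSKO by −0.92 and higher in RPKO by 0.88 (limma adjusted p = 5.5e-07 and 8.4e-07). Ppp1r3b, which targets a phosphatase to glycogen, had the same arrangement, at −0.55 in TSKO and 0.62 in RPKO.

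Of 22 bile acid genes, 7 were higher and 7 lower (11 and 3 with the deposited scaling), shares near those over all genes told apart (29.2% and 25.8%). Cyp7a1, the rate-limiting enzyme of bile acid synthesis, had 19.2, 128 and 399 RPM in TSKO, against 9.66, 50 and 169 RPM in RPKO and 16.6, 44.5 and 241 RPM in Albumin-Cre. Its difference was 1.32 (SE 0.22, limma adjusted p = 1.3e-06), on overlapping ranges. Cyp8b1, which sets the share of cholic acid, differed by 1.64, whereas Akr1d1, a reductase of the same pathway, differed by −0.95. Both moved in opposite directions in the knockouts against Albumin-Cre.

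Several of the genes with the largest differences were called against Albumin-Cre in TSKO only. Col5a2 (chr1:45374321-45503282, minus strand), a fibrillar collagen chain gene, had 41.5, 82.4 and 255 RPM in TSKO, against 0.698, 1.78 and 3.34 RPM in RPKO and 0.551, 1.43 and 5.97 RPM in Albumin-Cre. No TSKO library came near the other groups, and the difference was 5.25 (SE 0.18, limma adjusted p = 2.8e-27), between 4.71 and 5.67 at each time. Most of the other matrix genes did not follow it. Of 20 told apart, Col5a2 included, 3 were higher and 10 lower in TSKO than in RPKO (6 and 6 with the deposited scaling). Their median was −0.32, and Bgn (−0.76), Lum (−0.99) and Col4a1 (−0.71) were among the lower ones. The shares over all genes told apart were 29.2% higher and 25.8% lower.

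Gdpd3, a lysophospholipase D gene, had 8.24 to 34.1 RPM in TSKO, against 0 to 1.55 RPM in RPKO and 0.104 to 1.68 RPM in Albumin-Cre. Cyp46a1, cholesterol 24-hydroxylase, had 5.44 to 55.7 RPM in TSKO, against 0 to 2.30 RPM in RPKO and 0.663 to 3.94 RPM in Albumin-Cre. Lrp2, which encodes the endocytic receptor megalin, had 2.07 to 24.1 RPM in TSKO, against 0 to 1.41 RPM in RPKO and 0 to 1.97 RPM in Albumin-Cre. For all of these 3 genes TSKO stood clear of RPKO and of Albumin-Cre, and differences from RPKO were 4.26, 3.64 and 3.28.

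Gpx3, a secreted glutathione peroxidase gene, had a median of 64.0 RPM in TSKO, against 3.08 RPM in RPKO and 2.06 RPM in Albumin-Cre. A single TSKO library, ZT 18 replicate 2, was at 3.16 RPM, within the RPKO range of 0.955 to 5.89 RPM, and the other 17 were at 37.1 to 188 RPM. The difference was 4.11 (SE 0.28, limma adjusted p = 1.3e-16). Enho, the gene of the secreted peptide adropin, had 6.50 to 34.2 RPM in TSKO, against 0.359 to 5.44 RPM in RPKO and 0.296 to 4.77 RPM in Albumin-Cre.

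Serpina12 (chr12:104028769-104044443, minus strand), the gene of the serine protease inhibitor vaspin, had the lowest difference. Its level was 0.249, 3.16 and 9.66 RPM in TSKO, against 34.2, 80.0 and 293 RPM in RPKO and 2.12, 36.1 and 70.7 RPM in Albumin-Cre. The knockouts did not overlap and the difference was −4.55 (SE 0.28, limma adjusted p = 4.3e-18). TSKO was lower than Albumin-Cre by −3.16 and RPKO was higher by 1.39 (limma adjusted p = 3.5e-12 and 8.0e-05). Its relative Serpina7, thyroxine-binding globulin, was arranged alike, at −2.32 and 0.63.

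Hp, haptoglobin, an acute phase protein that binds free haemoglobin, had 43.4, 127 and 307 RPM in TSKO, against 471, 717 and 935 RPM in RPKO and 501, 663 and 847 RPM in Albumin-Cre. The RPKO range contained the Albumin-Cre range while TSKO lay wholly below both, at −2.37 from RPKO (SE 0.13, limma adjusted p = 5.4e-20). Other acute phase genes were higher in TSKO. Serpina3n, an antichymotrypsin gene, had 196 to 359 RPM in TSKO, against 62.3 to 95.7 RPM in RPKO and 137 to 236 RPM in Albumin-Cre, a difference of 1.79 (SE 0.07, limma adjusted p = 6.5e-26). Hpx, which binds free haem, differed by 1.07 without overlap. Over the acute phase list, 8 of 18 were higher and 6 lower, beside 29.2% and 25.8% over all genes told apart.

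Fitm1, which helps form lipid droplets, and Hsd3b5, a male-biased steroid dehydrogenase gene, were also lower in TSKO than in RPKO. Fitm1 had 1.26 to 9.56 RPM in TSKO, against 11.5 to 48.0 RPM in RPKO and 9.41 to 45.7 RPM in Albumin-Cre. Hsd3b5 had 0.276 to 56.9 RPM in TSKO, against 20.0 to 176 RPM in RPKO and 7.10 to 161 RPM in Albumin-Cre, with overlap and a difference of −2.27 (SE 0.39, limma adjusted p = 2.9e-06). Atxn7l3, the gene of a deubiquitinase cofactor, stood out on the RPKO side, with 4.25 to 7.27 RPM in TSKO and 20.4 to 39.4 RPM in RPKO, against 4.25 to 9.10 RPM in Albumin-Cre. The part that processing of the RPKO libraries may have in this difference was not tested.

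Both knockouts were set against the same 18 Albumin-Cre libraries, so their differences from it are not independent. Among the genes told apart, 664 (7.09%) were called in both knockouts with opposite signs, of which 406 (4.34%) were higher in TSKO and lower in RPKO and 258 (2.76%) the reverse. In the same direction moved 733 (7.83%), 381 higher in both (4.07%) and 352 lower in both (3.76%). These splits depended on the scaling. With total reads in place of TMM, 150 were higher and 758 lower in both, and 432 and 216 were opposite with TSKO higher and lower. With the deposited scaling, 128 were higher and 803 lower in both, and 1015 and 85 were opposite with TSKO higher and lower. A further 1971 were called for TSKO only (21.1%) and 2134 for RPKO only (22.8%). Each knockout by itself gave 1883 higher (20.1%) and 1485 lower genes (15.9%) in TSKO, and 1724 higher (18.4%) and 1807 lower (19.3%) in RPKO. Over all genes tested, 962 moved in opposite directions (7.74%) and 1156 in the same direction (9.31%). One control library, Albumin-Cre ZT 10 replicate 2, scattered more than the rest, and without it the counts for genes told apart were 714 opposite and 766 same.

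Genes higher in TSKO and lower in RPKO included Sult5a1 (chr8:123140192-123158315, minus strand), a sulfotransferase gene, at 3.91 in TSKO and −0.90 in RPKO from Albumin-Cre. It had 43.0, 170 and 241 RPM in TSKO, against 1.83, 4.89 and 16.7 RPM in RPKO and 4.91, 10.7 and 19.7 RPM in Albumin-Cre. The fructose transporter gene Slc2a5 (0.81 and −0.70) and the lipid transporter gene Abca3 (0.76 and −0.64) had smaller values of both signs. Serpina3c had larger values (2.24 in TSKO and −2.27 in RPKO), but its TSKO libraries were split, with 7 at 335 to 517 RPM and 11 at 2.34 to 12.3 RPM. In Albumin-Cre it had 3.00 to 12.9 RPM and in RPKO 0.339 to 3.33 RPM.

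The reverse arrangement, with TSKO lower, included Pnpla7, a lysophospholipase gene, with 27.1, 34.8 and 55.9 RPM in TSKO, against 85.9, 124 and 193 RPM in RPKO and 47.3, 68.5 and 114 RPM in Albumin-Cre. The knockouts did not overlap, and the differences from Albumin-Cre were of like size, −0.88 and 0.89. The organic cation transporter gene Slc22a3 (−1.37 and 0.93), the chemokine gene Cxcl14 (−1.58 and 0.84) and the glutathione transferase gene Gstm3 (−0.75 and 0.82) followed.

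**Figure D4:**
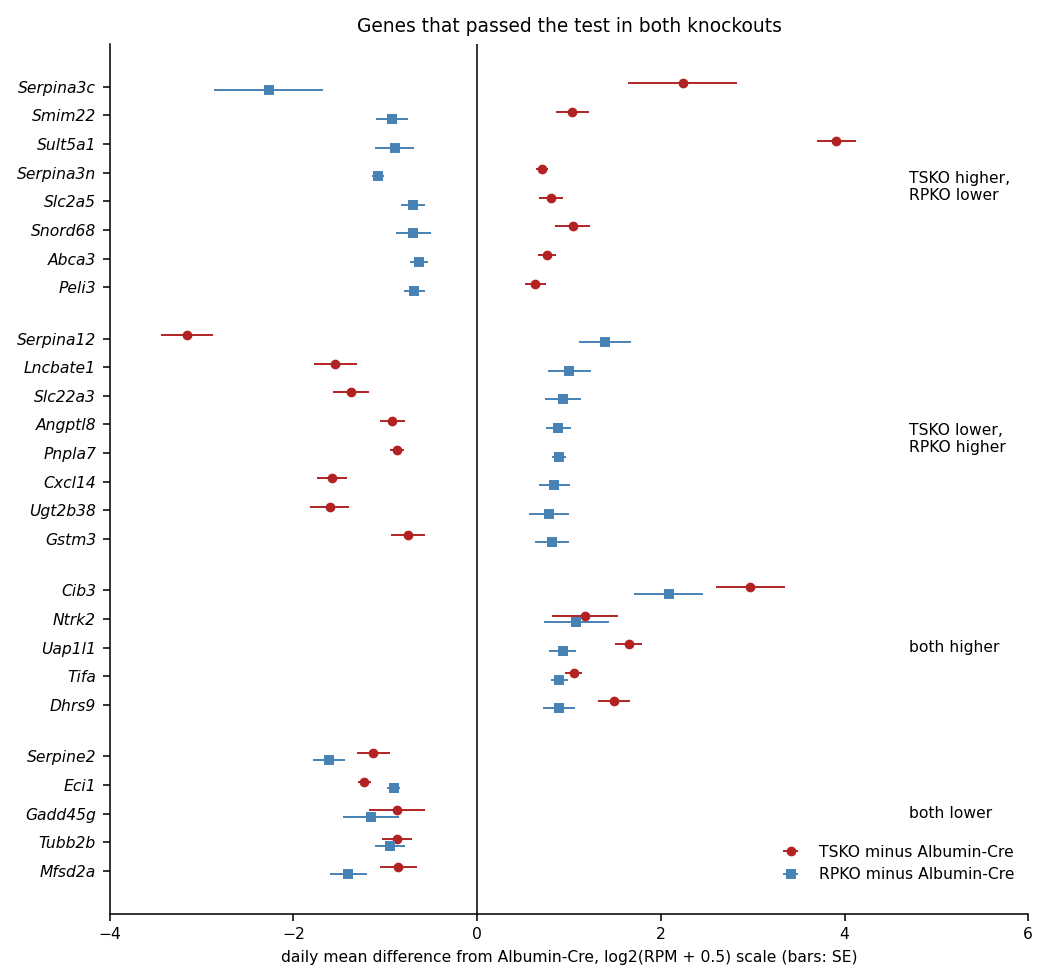
Daily mean log2 difference from the same Albumin-Cre libraries in TSKO (circles) and RPKO (squares), with SE bars, for the genes told apart with the largest smaller value in each class: 8 genes for each opposite class and 5 for each shared class. In the first 16 genes the markers lie on opposite sides of 0, and in the last 10 on the same side.

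Genes that moved together in both knockouts included Cib3, a calcium-binding protein gene, higher than Albumin-Cre by 2.98 in TSKO and 2.09 in RPKO. Its ranges were broad, at 0.613 to 79.8 RPM in TSKO and 0.619 to 22.4 RPM in RPKO, against 0.133 to 6.36 RPM in Albumin-Cre. Tifa, an adaptor of innate immune signalling, was higher by 1.05 and 0.90, and the knockouts differed by 0.16, which did not pass (SE 0.09, limma adjusted p = 0.14). Eci1, an isomerase of fatty acid oxidation, was lower in both, with 64.4, 104 and 141 RPM in TSKO and 98.7, 124 and 145 RPM in RPKO, against 163, 240 and 283 RPM in Albumin-Cre. Both knockouts lay wholly below the control range for Eci1. Mfsd2a, a fasting-induced lipid transporter gene, was lower by −0.86 in TSKO and −1.40 in RPKO.

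Markers of other liver cells moved between the knockouts and are given beside these results. Their counts stand beside 29.2% higher and 25.8% lower in TSKO over all genes told apart. Of 14 Kupffer cell and macrophage markers told apart, 9 were lower in TSKO than in RPKO and none was higher (4 and 1 with the deposited scaling), and their summed level was 257 to 433 RPM in TSKO, against 339 to 519 RPM in RPKO and 279 to 559 RPM in Albumin-Cre. C1qa, a complement gene of macrophages, had 14.2 to 29.0 RPM in TSKO, against 24.0 to 52.7 RPM in RPKO and 21.1 to 48.5 RPM in Albumin-Cre. Of 14 stellate cell and fibroblast markers, 7 were lower and 1 higher (2 and 3 with the deposited scaling), with sums of 299 to 462 RPM in TSKO, against 357 to 523 RPM in RPKO and 345 to 448 RPM in Albumin-Cre. Of 14 sinusoidal endothelial markers, 6 were lower and 4 higher (2 and 6 with the deposited scaling), with sums of 343 to 474 RPM in TSKO and 366 to 485 RPM in RPKO, against 352 to 542 RPM in Albumin-Cre. Pecam1 (−1.36) and Lyve1 (1.36) of this list differed in opposite directions by the same size. Of 19 fetal liver and liver injury genes told apart, 3 were higher and 10 lower in TSKO than in RPKO, with a median of −0.27. The part of these cells in the lower matrix and injury genes of TSKO was not tested. The 9 hepatocyte markers told apart summed to 64886 to 98044 RPM in TSKO and 37669 to 80107 RPM in RPKO, against 66116 to 87467 RPM in Albumin-Cre. Most of this sum was Alb, with a mean of 53061 RPM in TSKO, 45586 RPM in RPKO and 51254 RPM in Albumin-Cre. Of the 9 markers, 3 were higher and 1 lower in TSKO than in RPKO. Immediate early genes, which respond to handling as well as to growth factors, were lower in TSKO for 4 of 9 and higher for 1, with Junb at −0.82.

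Few differences in daily course between the knockouts passed the test. The 24 h cosine and sine terms differed for 8 of all genes tested (0.0644%), of which 7 could be told apart (0.0748%), and the night minus day difference for 2 (0.0161%), of which 1 could be told apart (0.0107%). At an unadjusted p under 0.05 there were 1096 genes for the rhythm (8.82%) and 959 for night minus day (7.72%). The median amplitude over genes told apart was 0.21 in TSKO and 0.20 in RPKO, against 0.21 in Albumin-Cre, with a median SE of 0.10, so a change in a rhythm of common size was hardly detectable and a small count of calls does not show that rhythms are alike. The part that processing of the RPKO libraries may have in these contrasts, also near 0 RPM, was not tested.

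Of the 21 core clock genes told apart, none had a called rhythm difference, and the lowest adjusted p in limma was 0.36. At an unadjusted p under 0.05 there were 7 (33.3%), beside 8.99% over all genes told apart. For the 17 with an amplitude over 0.5 on the log2 scale in both knockouts, the fitted peak in TSKO was 0.10 h earlier to 2.01 h later than in RPKO, with a median of 0.58 h later, and it was later in TSKO for 14 of them. The amplitude was lower in TSKO than in RPKO for 13 of the 17. Arntl, the Bmal1 gene, had an amplitude of 2.10 in TSKO and 2.19 in RPKO, against 2.26 in Albumin-Cre, with an SE of 0.15. Dbp, a transcription factor gene driven by the clock, had amplitudes of 2.95 in TSKO and 3.53 in RPKO, against 2.90 in Albumin-Cre (SE 0.13), with an adjusted p of 0.38 for the difference in limma. In the daily mean, 4 of the 21 clock genes were higher in TSKO and 7 lower (10 and 1 with the deposited scaling), together a share near the 55.0% over all genes told apart, among them Csnk1d, a kinase of the PER proteins, at 0.85.

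Slc16a10 (chr10:40033532-40142258, minus strand), a transporter of aromatic amino acids, had the lowest adjusted p among the genes told apart. Its mean RPM at ZT 2, 6, 10, 14, 18 and 22 was 49.9, 35.8, 33.3, 44.8, 77.1 and 60.8 in TSKO, against 43.0, 38.7, 47.4, 49.7, 48.1 and 37.2 in RPKO and 31.3, 25.4, 32.5, 36.4, 38.7 and 34.9 in Albumin-Cre. The night peak stood out in TSKO, with an amplitude of 0.57 in TSKO, 0.19 in RPKO and 0.26 in Albumin-Cre (SE 0.07), and the rhythms of the knockouts differed at a limma adjusted p of 0.0046.

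Soat2 (chr15:102150526-102163469, plus strand), which esterifies cholesterol in hepatocytes, had 8.63, 12.8, 11.5, 9.40, 6.61 and 6.46 RPM over the same times in TSKO. It had 7.03, 6.95, 2.48, 0.943, 7.83 and 2.33 RPM in RPKO, and 10.3, 17.6, 13.9, 13.2, 10.4 and 8.19 RPM in Albumin-Cre. RPKO had its low at ZT 14, while the fitted peak was at ZT 8.2 in TSKO and at ZT 9.1 in Albumin-Cre (limma adjusted p = 0.029 for the rhythm of TSKO against RPKO). The call held in 41 of 53 alternatives and in 28 of the 36 fits without a single library. Ppl, the gene of periplakin, had its low at ZT 10 in TSKO, with 0.605 RPM, when RPKO had 9.66 RPM and Albumin-Cre 4.69 RPM, and the knockouts differed at a limma adjusted p of 0.018. Hspa4l, a heat shock protein gene, peaked at night in all groups, with an amplitude of 0.98 in TSKO, 0.45 in RPKO and 0.60 in Albumin-Cre (SE 0.07, limma adjusted p = 0.029 for TSKO against RPKO). Fitted with TSKO and RPKO libraries only, the adjusted p in limma was 0.0548 for Slc16a10, 0.0643 for Ppl, 0.0983 for Soat2 and 0.098 for Hspa4l. With all libraries of the table in one limma fit it was 0.0767 for Slc16a10, 0.107 for Ppl, 0.000962 for Soat2 and 0.494 for Hspa4l. All of these genes lost the call whichever replicate number was left out.

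**Figure D5:**
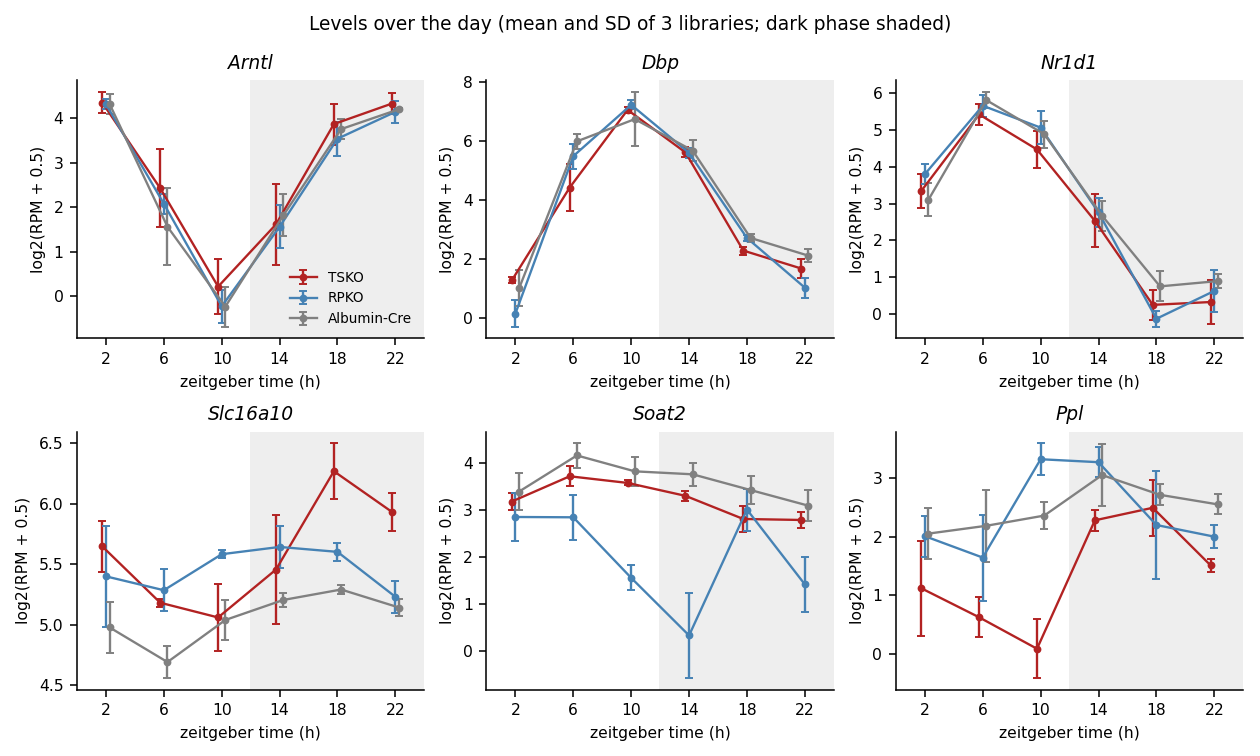
Mean and SD of 3 libraries at each ZT on a log2(RPM + 0.5) axis, in TSKO, RPKO and Albumin-Cre, for 3 clock genes (top) and 3 genes with a called rhythm difference between TSKO and RPKO (bottom); points are shifted sideways for legibility and the dark phase is shaded. The 3 clock genes drawn nearly overlie each other, while Slc16a10, Soat2 and Ppl separate at some times. These 3 do not stand for the whole clock list. Over the 17 clock genes told apart with an amplitude over 0.5 in both knockouts, the median fitted peak was 0.58 h later in TSKO.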

How the data were processed

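Total RNA of liver was sequenced from its 3′ ends (QuantSeq forward), per the labels' protocols, and the submitters' processing notes name STAR 2.7.3a, SAMtools and the build mm10 (GRCm38.p6). They name no counter or annotation. The authors deposited a normalized signal per gene and library, in which whole reads divided by a factor per library could be recovered within 0.01 read, for 100% of values in TSKO and Albumin-Cre and at least 98.8% in RPKO. In RPKO, 198 genes lay on a second step, 0.771 to 0.782 of the main one, and were left out.

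Reads were scaled by TMM (edgeR 4.0.16) to RPM. Genes averaging at least 1 RPM over 54 libraries, 12421 of 15907, entered limma 3.58.1 with trend on log2(RPM + 0.5), with a mean for each arm and time, equal weight of the 6 times and Benjamini-Hochberg adjustment over all genes. The rhythm test joined the 24 h cosine and sine contrasts, and night minus day set ZT 14, 18 and 22 against ZT 2, 6 and 10. The fit was tested on simulated data. Genes were told apart with GENCODE annotation and 32-base words, a rule chosen after seeing the data. Promoters came from RefSeq (GRCm38.p6). Alternatives were other scalings, edgeR, DESeq2 1.42.0, pseudocounts, filters, a fold minimum, other sets of libraries and left-out libraries. R 4.3.3 and Python 3.11.15 were used.

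The members and the 45 gene lists were chosen with earlier results of these data known. Named genes were Tsc1 and Rptor, the 14 highest and 14 lowest called genes with 1 sign at all 6 times and at least 5 RPM in a knockout, up to 5 genes of each list by adjusted p, 8 opposite and 5 shared genes each way against Albumin-Cre, and the lowest adjusted p values for rhythm (12) and night minus day (6). Chosen after their values were seen were Arntl, Atg10, Atg101, Atp6v0d1, Ctsa, Ctsd, Ctsl, Dbp, Flcn, Gla, Mcoln1, Nr1d1 (drawn only), Optn, Rictor, Rragc, Tbc1d7, Tfe3, Tfeb and Ulk1. Some items are not reported here.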

Additional observations from a re-analysis of the deposited data

Results flagged for a closer look

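All results here are differences between TSKO and RPKO in daily course, tested as such, and chosen because the test of the difference itself passed. The 24 h rhythm differed in limma for Slc16a10 (adjusted p = 0.00461), D830050J10Rik (0.00508), Ccdc66 (0.0112), Ppl (0.0182), Soat2 (0.0289), Hspa4l (0.0289) and Crnkl1 (0.0498), all told apart, and for Gm7232 (9.13e-05), which is not. The night minus day difference passed for Ccdc66 (limma adjusted p = 0.0131) and Gm7232 (limma adjusted p = 0.00652).

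Ccdc66 had mean levels of 4.98, 7.05, 4.30, 3.31, 2.96 and 4.91 RPM at ZT 2, 6, 10, 14, 18 and 22 in TSKO, against 3.95, 4.91, 1.90, 3.76, 5.82 and 6.11 RPM in RPKO and 6.14, 3.70, 3.68, 3.30, 3.22 and 3.76 RPM in Albumin-Cre. Its level was higher by day in TSKO and higher by night in RPKO. D830050J10Rik peaked at ZT 9.4 in TSKO with an amplitude of 0.77, against amplitudes of 0.16 in RPKO and 0.35 in Albumin-Cre.

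Gm7232 had 19.6 to 153 RPM as time means in TSKO, against 0.0517 to 0.551 RPM in RPKO and 33.1 to 115 RPM in Albumin-Cre. With RPKO near 0 its rhythm there could hardly be measured, and edgeR on the recovered reads gave an adjusted p of 0.735 for the rhythm. The rhythm was called in 20 of 53 alternatives for Crnkl1, 37 of 53 for Hspa4l, 41 of 53 for Soat2, 46 of 52 for Ppl, 47 of 52 for Ccdc66, 48 of 53 for Slc16a10 and 51 of 53 for D830050J10Rik. For each gene, 36 of these left out a single library. Among the rest it was called in 10 of 17 for Crnkl1, 11 of 17 for Hspa4l and 13 of 17 for Soat2. It was called in 11 of 16 for Ppl, 11 of 16 for Ccdc66, 12 of 17 for Slc16a10 and 15 of 17 for D830050J10Rik. Of these genes told apart, only D830050J10Rik was called without a replicate number, and only without number 3. Gm7232, which is not told apart, was called in 49 of 52 alternatives, among them those without number 2 and without number 3. With all libraries of the table in one fit, Slc16a10, Ppl, Ccdc66, Hspa4l and Crnkl1 lost the call. With TSKO and RPKO libraries only, D830050J10Rik and Gm7232 were called and the other genes named here lost the call.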

How the results depend on the processing

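Several counts moved with the processing, while the effect of depth was not tested. With a minimum fold of 1.5 the daily mean counts were 2464 over all genes and 1442 over genes told apart. With all libraries of the table in one fit, genes in opposite directions numbered 634 (417 told apart), in the same direction 753 (454 told apart), with 4 for the rhythm and 1 for night minus day. With the deposited scaling, 80.3% of daily mean calls were higher in TSKO, opposite genes told apart numbered 1100 and rhythm genes 14, and Arg1 (0.0549), Rora (0.0274), Dcn (0.0185) and Palld (0.229) changed sign, where the median over all genes was 0.25.

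The rhythm count, 8, was 13 with DESeq2 size factors, 22 with a pseudocount of 2, 3 with TSKO and RPKO libraries only and, chosen after seeing the data, 20 without Albumin-Cre ZT 10 replicate 2, which also gave 1021 opposite genes (714 told apart) and 1214 in the same direction (766 told apart). The night minus day count, 2, was 1 with a pseudocount of 0.1, with a mean of at least 5 RPM, with edgeR and, added later, over genes told apart only, 0 with TSKO and RPKO libraries only and 16 with the DESeq2 Wald test. The cause was not tested.

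Leaving out one library gave 7011 to 7149 daily mean calls, 5 to 22 for the rhythm (22 without RPKO ZT 18 replicate 2, 16 without RPKO ZT 2 replicate 1, 15 without TSKO ZT 6 replicate 2 or ZT 14 replicate 2, 14 without RPKO ZT 18 replicate 3 or ZT 22 replicate 2, 13 without RPKO ZT 2 replicate 3, 5 without RPKO ZT 10 replicate 2 or 3) and 2 to 7 for night minus day (7 without TSKO ZT 6 replicate 2, 5 without RPKO ZT 14 replicate 2, and 4 without TSKO ZT 22 replicate 1 or 3 or RPKO ZT 10 replicate 1, ZT 18 replicate 2 or ZT 22 replicate 2). Leaving out one replicate number everywhere, which leaves 2 libraries per group and time, gave 0 to 4 and 0 to 0 for these, 503 to 576 opposite genes (323 to 381 told apart) and 670 to 900 in the same direction (375 to 578 told apart). Without a single TSKO or RPKO library these last counts were 903 to 967 (619 to 671) and 1091 to 1229 (690 to 758).

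The replicate numbers were not taken as pairs: residuals of same-numbered TSKO and RPKO libraries of a time correlated at −0.09 to 0.17, over 0.1 for all 3 pairs at ZT 18 and for none at other times. Within an arm, libraries with the same number correlated at a median of 0.10 in TSKO and 0.10 in RPKO, and those with other numbers at −0.04 in both. A replicate block gave 7198 daily mean calls and 12 for the rhythm. edgeR gave 7174 and DESeq2 7184 daily mean calls. Of 5973 repeats for 339 named genes, 5866 kept direction and call, 74 lost the call, 29 gained it and 4 changed sign. Of 1620 repeats of the list counts, 144 moved by over 1.5 times, 50 of them with the deposited scaling.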

Other observations

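Further genes separated the knockouts within lists whose counts were mostly near the shares over all genes told apart, 29.2% higher and 25.8% lower. B2m, the light chain of major histocompatibility class I, had 2575 to 4759 RPM in TSKO, against 1529 to 2077 RPM in RPKO and 1806 to 3310 RPM in Albumin-Cre. The knockouts did not overlap, and the log2 difference was 1.15 (SE 0.07, limma adjusted p = 5.3e-19). The interferon and antigen presentation list as a whole had 5 higher and 6 lower of 17 (5 and 2 with the deposited scaling). Of the 5 female-biased liver genes told apart, 3 were higher in TSKO and none lower, with values of 1.26 for Abcd2, a peroxisomal fatty acid transporter gene, 1.14 for Cyp17a1, a steroid hydroxylase gene, and 0.90 for Cyp39a1, an oxysterol hydroxylase gene. Of the 13 growth hormone responsive and male-biased genes, 2 were higher and 4 lower (5 and 3 with the deposited scaling), among them Elovl3, a fatty acid elongase gene, at −1.49 (SE 0.17, limma adjusted p = 9.0e-10).

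Of 20 proteasome genes, 8 were higher and 5 lower (16 and 2 with the deposited scaling). Psma7, a core particle subunit gene, had 278 to 392 RPM in TSKO, against 170 to 238 RPM in RPKO and 239 to 357 RPM in Albumin-Cre. Psmc5, a regulatory particle ATPase gene, had 31.4 to 46.1 RPM in TSKO, against 51.2 to 74.2 RPM in RPKO and 36.6 to 67.6 RPM in Albumin-Cre. Neither overlapped between the knockouts, and their differences had opposite signs, at 0.68 and −0.73. Apom, a carrier of sphingosine 1-phosphate in lipoproteins, had 228 to 392 RPM in TSKO and 129 to 214 RPM in RPKO, against 141 to 267 RPM in Albumin-Cre.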
